A study of Homo sapiens with 22 samples.

Results

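The numbered zinc finger genes (ZNF genes) are human genes whose symbol is ZNF followed by a number and at most 1 letter. They were followed here in heat-shocked and recovering HEK293T cells that had received an siRNA against Satellite III (Sat III) RNA or a scrambled siRNA. A gene was taken in when a probe with such a symbol had a detection p-value under 0.01 on at least 11 of the 22 arrays, and its probe of highest mean raw intensity stood for it. This gave 255 genes, of 453 genes with such a name on the array and of 10147 genes tested in all. Of the 255 genes, 204 were detected on all 22 arrays. Detection and raw intensity chose the genes, so their being above background is no result. Just inside the limit, at 11 or 12 arrays, were ZNF124, ZNF304, ZNF383, ZNF460, ZNF502, ZNF607, ZNF75A, ZNF778 and ZNF815P, with mean raw intensities of 77.1 to 83.1. Just outside it, at 9 or 10 arrays, were ZNF57, ZNF335, ZNF630, ZNF606, ZNF276, ZNF655, ZNF431 and ZNF354A, at 73.7 to 80.0. The 5 probes of highest mean raw intensity were those of ZNF428 (4145), ZNF207 (2741), ZNF430 (2582), ZNF549 (2255) and ZNF486 (2163). The 5 lowest were those of ZNF607, ZNF75A, ZNF460, ZNF124 and ZNF815P, at 77.1 to 78.4. Whether a probe also binds RNA of related ZNF genes was not checked, so every level here is that of a probe.

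Most ZNF genes code for proteins with arrays of C2H2 zinc fingers, each finger a small fold around a zinc ion that can read a few bases of DNA. Many also carry a KRAB domain, which binds the corepressor TRIM28 (KAP1) and through it brings the histone methyltransferase SETDB1 and HP1 proteins to the bound DNA, often in retroelements. Some carry a SCAN domain, act as activators, or bind RNA. Many of these genes lie in clusters on chromosome 19, where the family grew by repeated duplication.

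HEK293T cells were derived from human embryonic kidney and express the large T antigen of SV40. All cells were transfected, so every group carries an siRNA. In the Sat III siRNA arm, 3 samples were left untreated, 3 were held for 1 h at 42 °C (heat shock), and 4 had the same heat shock and then 6 h of recovery. In the scrambled siRNA arm there were 4 untreated, 4 heat-shocked and 4 recovering samples. Sat III RNA is copied from pericentromeric repeats in heat-shocked human cells, and its own level was not analysed here. Whether samples came from separate cultures is not in the labels, so the p-values rest on a spread between samples that may be technical.

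Between 13176 and 14863 probes per array were detected, and between 229 and 253 of the 255 ZNF genes. HSPA6, a chaperone gene that is nearly silent without stress, lay at 4.56 to 4.89 on the log2 scale on the untreated arrays, at 12.49 to 13.74 on the heat-shocked and at 9.61 to 10.6 on the recovering arrays. Of the markers listed for HEK293T cells, VIM, NEFM, INA, LIN28B and KRT18 were detected on 22 arrays and IGF2BP1 on 12. PTPRC, CD3E, HBB, ALB, KRT5 and KRT14, markers of other cell types, were detected on 0. A normalised table was deposited as well. Of its 22 columns, 15 held almost exactly the probe order of the scanner column of the same label, 6 matched another scanner column, and 1 matched none. All values below come from the scanner table, with levels and differences on the log2 scale after background correction and quantile normalisation. A gene was called changed at an adjusted p under 0.05 (limma, Benjamini-Hochberg over all 10147 genes). The 10147 genes needed detection on at least 3 arrays, and the ZNF genes on at least 11. The ZNF genes were also dimmer, with a median level per array of 7.07 to 7.26 against 7.99 to 8.03 for all genes. Shares and medians of ZNF genes and of all genes below thus rest on unlike filters and levels.

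Of the 255 genes, 108 (42.4%) lie on chromosome 19, which holds 6.59% of all genes tested, and 20 lie on chromosome 16 and 19 on chromosome 7. Promoters of 218 of the 255 genes were found in RefSeq's table (GRCh38.p14). The 250 bases before the start of these 218 genes held a median of 18 CG pairs, against 11 over all 27305 promoters in the table. Those 27305 were not limited to genes detected here, as the ZNF genes were. This comparison and those of motifs with all promoters below thus do not set like against like. Heat shock factor 1 binds inverted repeats of GAA, so the palindrome GAANNTTC, which reads the same on both strands, was searched in those 250 bases. It was present in 15 of 218 ZNF promoters (6.88%), against 1597 of all 27305 (5.85%). A longer motif, GAANNTTC followed directly by NNGAA, contains the palindrome and was searched on both strands. It was present in 0 of 218 and in 120 of all promoters (0.439%). Among ZNF genes called higher after heat shock in the scrambled arm, 2 of 42 promoters (4.76%) held the palindrome, and among those that did not pass the test 12 of 168 (7.14%) did. A match is a description of the letters and not a binding site. The promoters shown next are those of ZNF202 and ZNF200, called higher after heat shock in both arms, ZNF784, called lower in both, ZNF622 and ZNF653, which hold the palindrome, and HSPA6, a heat shock gene with matches. Each runs 5′ to 3′ on the gene's own strand, and capitals mark GAANNTTC. The ZNF202 promoter (chr11:123741661-123741910, minus strand), the ZNF200 promoter (chr16:3235159-3235408, minus strand) and the ZNF784 promoter (chr19:55624567-55624816, minus strand) held no match to GAANNTTC.
ZNF202: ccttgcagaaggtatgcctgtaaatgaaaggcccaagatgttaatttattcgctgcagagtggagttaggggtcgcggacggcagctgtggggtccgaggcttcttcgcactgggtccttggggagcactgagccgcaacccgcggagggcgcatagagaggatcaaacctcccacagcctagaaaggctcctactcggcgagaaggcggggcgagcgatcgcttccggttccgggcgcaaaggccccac
ZNF200: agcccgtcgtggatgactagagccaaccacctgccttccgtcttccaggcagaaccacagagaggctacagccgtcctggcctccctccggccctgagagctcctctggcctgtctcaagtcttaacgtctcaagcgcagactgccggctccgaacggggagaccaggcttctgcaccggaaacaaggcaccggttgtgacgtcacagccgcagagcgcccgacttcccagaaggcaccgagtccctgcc
ZNF784: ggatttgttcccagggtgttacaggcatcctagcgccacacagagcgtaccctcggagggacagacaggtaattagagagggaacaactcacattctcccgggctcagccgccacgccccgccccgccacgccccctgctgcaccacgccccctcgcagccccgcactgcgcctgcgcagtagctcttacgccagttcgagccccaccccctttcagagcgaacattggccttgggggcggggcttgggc
The ZNF622 promoter (chr5:16465801-16466050, minus strand) and the ZNF653 promoter (chr19:11505840-11506089, minus strand) each held 1 match.
ZNF622: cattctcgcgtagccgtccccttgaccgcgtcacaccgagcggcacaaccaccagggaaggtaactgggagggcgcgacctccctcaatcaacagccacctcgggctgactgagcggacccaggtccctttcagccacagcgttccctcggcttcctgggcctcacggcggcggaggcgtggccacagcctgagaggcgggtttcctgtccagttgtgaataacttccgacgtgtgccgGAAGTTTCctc
ZNF653: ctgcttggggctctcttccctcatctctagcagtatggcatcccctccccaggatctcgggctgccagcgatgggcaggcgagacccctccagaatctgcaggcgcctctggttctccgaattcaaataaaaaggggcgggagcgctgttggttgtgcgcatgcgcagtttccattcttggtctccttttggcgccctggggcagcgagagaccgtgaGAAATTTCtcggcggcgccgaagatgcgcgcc
Other heat shock genes differed in the same search. HSPA1A and HSPA1B had 1 match each and 0 to the longer motif, while DNAJB1 and HSPH1 had 0 matches to either, although DNAJB1 rose after heat shock by 4.41 with Sat III and 4.42 with scrambled siRNA. The HSPA6 promoter (chr1:161524290-161524539, plus strand) held 2 matches and 1 match to the longer motif.
HSPA6: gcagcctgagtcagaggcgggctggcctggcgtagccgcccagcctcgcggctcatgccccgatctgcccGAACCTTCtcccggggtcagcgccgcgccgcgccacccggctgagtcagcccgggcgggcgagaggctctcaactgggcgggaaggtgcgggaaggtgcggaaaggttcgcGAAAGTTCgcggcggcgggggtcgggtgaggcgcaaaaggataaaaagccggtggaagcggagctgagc

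After 1 h at 42 °C more ZNF genes were called higher than lower in both arms. In the Sat III siRNA arm 33 of 255 ZNF genes (12.9%) were called higher and 12 (4.71%) lower than in untreated cells, against 4.11% and 3.51% of all 10147 genes and 7.62% in either direction. In the scrambled arm 52 (20.4%) were called higher and 11 (4.31%) lower, against 5.96% and 5.68% of all genes and 11.6% in either direction. The median log2 fold change of the 255 genes was 0.057 in the Sat III siRNA arm and 0.072 in the scrambled arm, and that of all genes was -0.018 in the Sat III siRNA arm and -0.022 in the scrambled arm. Among the 204 genes detected on all arrays, 30 were called higher and 9 lower in the Sat III siRNA arm, and 45 higher and 9 lower in the scrambled arm. Without Sat III heat shock replicate 1 the number called in the Sat III siRNA arm was 27 in place of 45. In bulk RNA a change in the share of cells and a change in RNA per cell cannot be told apart.

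The counts depended on how arrays were scaled. As an alternative, each array was scaled to the median of all its 48803 probes in place of quantile normalisation. Only 27 to 30.46% of the probes were detected per array, so this median lies among probes not above background. The median of all genes then moved to -0.100 in the Sat III siRNA arm and -0.119 in the scrambled arm. The median of the ZNF genes was then -0.018 in the Sat III siRNA arm and -0.035 in the scrambled arm, which is 0.082 and 0.084 above that of all genes in the same arms. Under quantile normalisation it was 0.076 above in the Sat III siRNA arm and 0.094 above in the scrambled arm. Median scaling called 3 higher and 2 lower in the Sat III siRNA arm, against 1.01% and 0.532% of all genes, and 4 higher and 3 lower in the scrambled arm, against 1.24% and 1.23%. All 33 genes called higher and all 12 called lower in the Sat III siRNA arm, and all 52 called higher and all 11 called lower in the scrambled arm, kept their sign under median scaling. With replicates 1 and 2 against replicates 3 and 4 as a block, an alternative chosen after seeing the data, median scaling called 15 higher and 11 lower in the Sat III siRNA arm, against 2.13% and 2.79% of all genes. In the scrambled arm it called 19 higher and 18 lower, 7.45% and 7.06%, against 2.70% and 6.70% of all genes, so the excess of higher over lower calls among ZNF genes depended on the scaling.

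**Figure D1:**
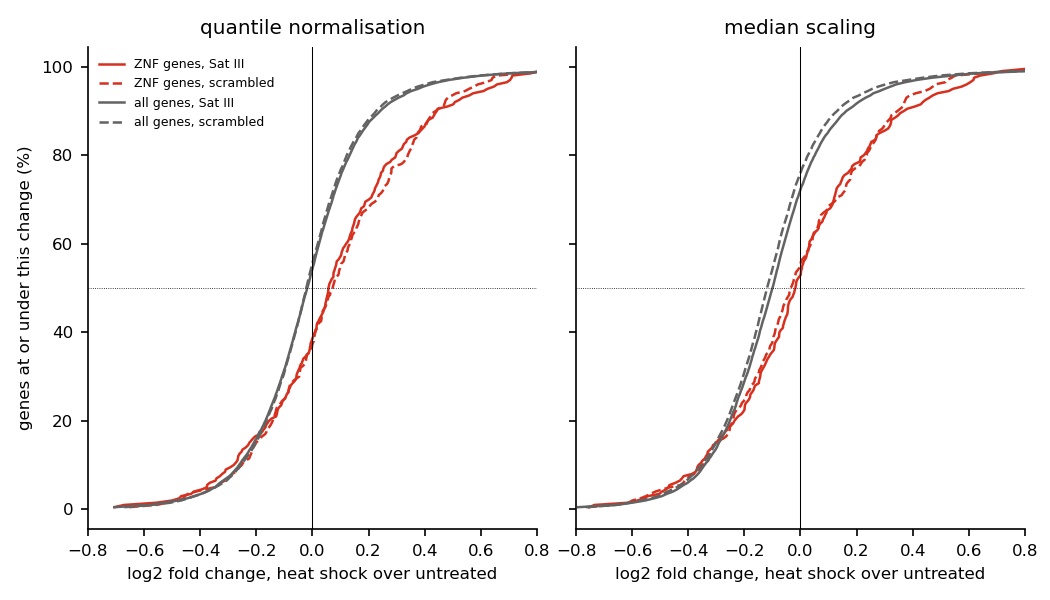
Cumulative curves of the log2 fold change of heat-shocked over untreated cells (x axis) against the share of genes at or under it (y axis), for the 255 ZNF genes (red) and all 10147 genes (grey) in each arm, under quantile normalisation and under median scaling. The red curves lie to the right of the grey ones over most of their length under both scalings, and median scaling moves all curves to the left.

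**Figure D2:**
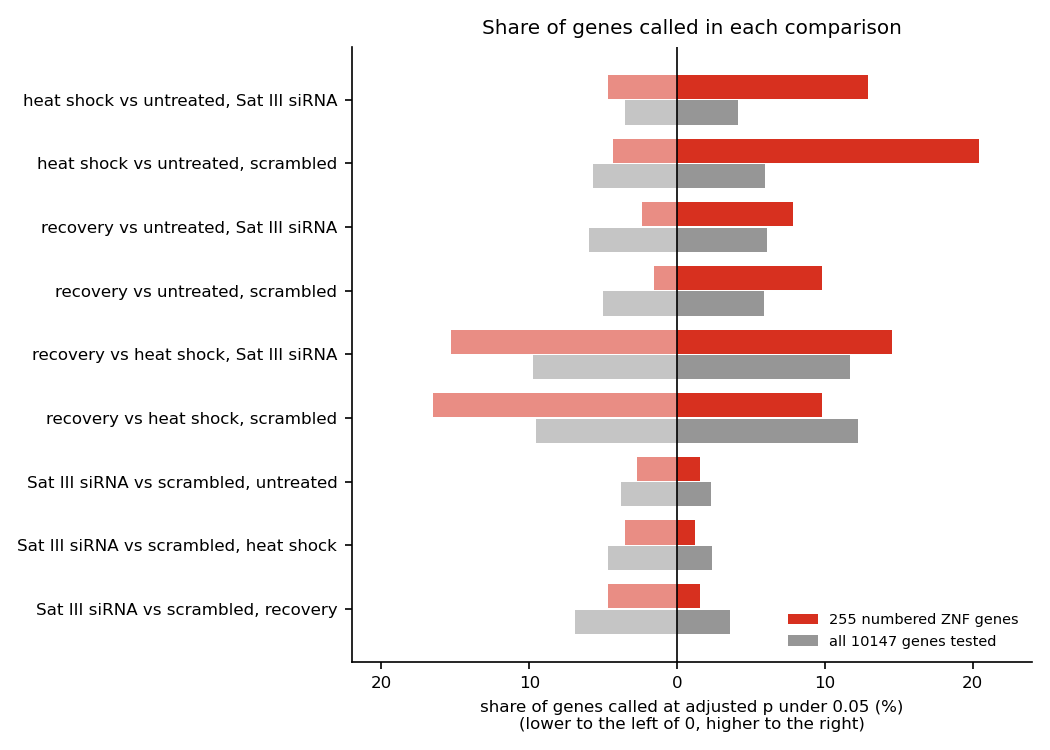
Percent of genes called higher (right of 0) and lower (left of 0, paler) at adjusted p under 0.05 in each of 9 comparisons under quantile normalisation, for the 255 ZNF genes (red) and all 10147 genes tested (grey). The longest bar is that of ZNF genes higher after heat shock in the scrambled arm, at 20.4% against 5.96% of all genes, a split that narrows under median scaling.

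The heat shock changes of the arms, which share no arrays, were set side by side. All 33 genes called higher in the Sat III siRNA arm had a positive change in the scrambled arm, and 29 of them (87.9%) were called there. Of the 52 called higher in the scrambled arm, 51 had a positive change in the Sat III siRNA arm and 29 (55.8%) were called. Of the 12 called lower in the Sat III siRNA arm, 10 had the same sign in the scrambled arm and 5 were called. Of the 11 called lower in the scrambled arm, all had the same sign in the Sat III siRNA arm and 5 were called. Pearson's r between the arms' changes was 0.79 across the 255 genes and 0.81 across all genes. These are correlations across genes, which are not independent replicates, on arrays normalised together.

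**Figure D3:**
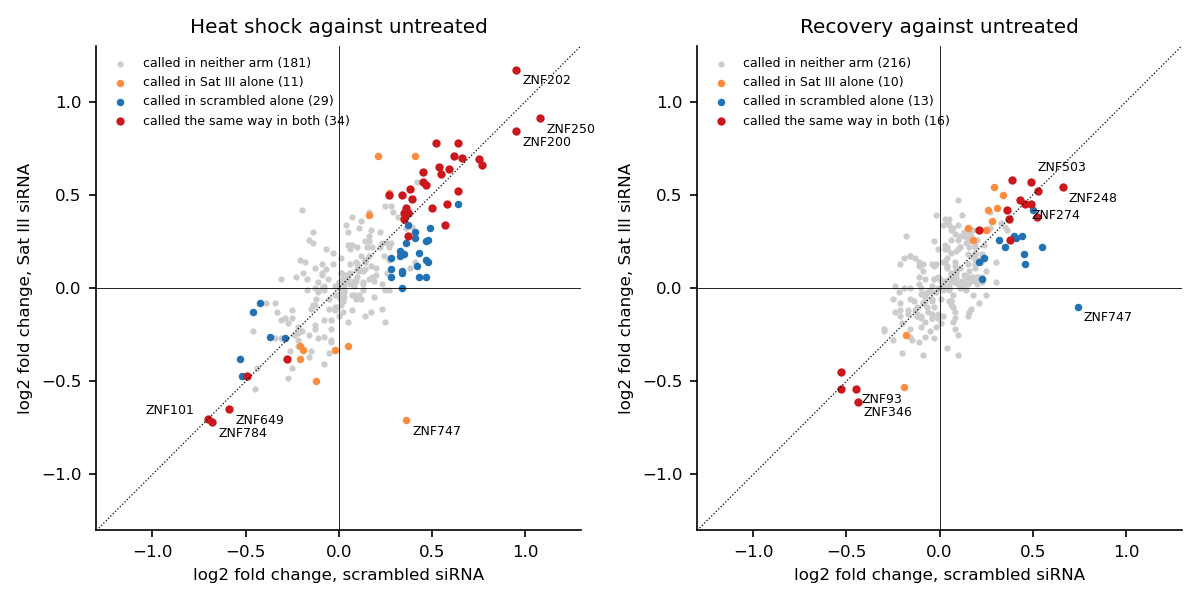
Log2 fold change of each of the 255 ZNF genes in the scrambled arm (x axis) and in the Sat III siRNA arm (y axis), for heat shock over untreated on the left and recovery over untreated on the right, with colours for the arm in which the gene was called and a dotted line of equal change. Of the 34 genes called the same way after heat shock in both arms, 29 lie in the upper right and 5 in the lower left, and ZNF747, whose scrambled untreated level was not above background, lies far from the dotted line in both panels.

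ZNF202, a SCAN and KRAB protein known to bind promoters of lipid metabolism genes, rose in both arms after heat shock. Its level was 6.99, 7.15 and 6.94 in heat-shocked cells with Sat III siRNA, against 5.99, 5.47 and 6.10 in untreated cells with it. It was 6.83, 7.13, 7.03 and 6.87 in heat-shocked cells with scrambled siRNA, against 5.80, 6.30, 6.22 and 5.77 in untreated cells with it. Every heat-shocked array lay above every untreated array of its arm. The log2 fold change was 1.17 ± 0.16 (SE, adjusted p = 3.39e-05, limma) with Sat III siRNA and 0.95 ± 0.14 (adjusted p = 5.7e-05) with scrambled siRNA. ZNF250 had levels of 7.35, 7.22 and 7.45 in heat-shocked and 6.45, 6.48 and 6.36 in untreated cells with Sat III siRNA. In the scrambled arm it stood at 7.56, 7.59, 7.65 and 7.60 in heat-shocked cells, against 6.40, 6.57, 6.42 and 6.70 in untreated cells. Again the groups did not overlap, and the changes were 0.91 ± 0.09 with Sat III siRNA and 1.08 ± 0.08 with scrambled siRNA (SE, adjusted p = 2.3e-07 and 9.91e-10). ZNF200 had levels of 9.33, 9.32 and 9.29 in heat-shocked cells against 8.53, 8.42 and 8.47 in untreated cells with Sat III siRNA, a change of 0.84 ± 0.08 (SE, adjusted p = 1.74e-07). With scrambled siRNA its levels were 9.29, 9.17, 9.15 and 9.32 in heat-shocked cells against 8.20, 8.25, 8.38 and 8.32 in untreated cells, a change of 0.95 ± 0.07 (adjusted p = 1.8e-09). The groups of ZNF200 did not overlap, but a second probe of the gene, detected on 22 arrays, had values of 0.04 with Sat III and 0.14 with scrambled siRNA, so its probes disagree on the size. ZNF202, ZNF250 and ZNF200 were also called in both arms under median scaling.

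Other genes rose by less. ZNF77 had levels of 8.12, 8.11 and 8.19 in heat-shocked cells against 7.47, 7.60 and 7.28 in untreated cells with Sat III siRNA. With scrambled siRNA they were 8.25, 8.10, 8.11 and 8.13 in heat-shocked cells against 7.51, 7.33, 7.55 and 7.19 in untreated cells. No heat-shocked array overlapped with an untreated array, and the changes were 0.69 ± 0.11 with Sat III and 0.75 ± 0.10 with scrambled siRNA (SE, adjusted p = 0.00022 and 9.22e-06, limma). ZNF721 changed by 0.78 ± 0.16 with Sat III siRNA and by 0.64 ± 0.14 with scrambled siRNA (adjusted p = 0.00275 and 0.00313). ZNF182 changed by 0.64 ± 0.08 with Sat III siRNA and 0.59 ± 0.07 with scrambled siRNA. ZNF566 changed by 0.61 ± 0.12 with Sat III siRNA and 0.55 ± 0.10 with scrambled siRNA, and was detected on all heat-shocked arrays, against 1 of 3 untreated arrays with Sat III and 2 of 4 with scrambled siRNA. ZNF700 changed by 0.70 ± 0.09 with Sat III and 0.66 ± 0.07 with scrambled siRNA, and a second probe of it by 0.63 with Sat III and 0.22 with scrambled siRNA. None of the heat shock calls of ZNF77, ZNF721, ZNF182, ZNF566 and ZNF700 was lost when any single array was left out. None of them was made under median scaling alone, and all were made in both arms under median scaling with the block of replicates 1 and 2 against 3 and 4.

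Fewer genes fell. ZNF101, ZNF784 and ZNF649, which lie on chromosome 19, fell in both arms. ZNF101 had levels of 5.55, 5.34 and 5.34 in heat-shocked cells against 6.10, 6.33 and 5.89 in untreated cells with Sat III siRNA. With scrambled siRNA they were 5.36, 5.52, 5.16 and 5.51 in heat-shocked cells against 6.12, 6.04, 6.13 and 6.06 in untreated cells. It was detected on 1 of 3 heat-shocked arrays with Sat III and on 1 of 4 with scrambled siRNA, against all untreated arrays, and its changes were -0.70 ± 0.12 with Sat III and -0.70 ± 0.11 with scrambled siRNA (SE, adjusted p = 0.000519 and 7.25e-05, limma). ZNF784 stood at 6.39, 6.88 and 6.84 in heat-shocked cells against 7.43, 7.45 and 7.37 in untreated cells with Sat III siRNA, a change of -0.72 ± 0.14 (adjusted p = 0.00224). With scrambled siRNA it stood at 6.45, 6.39, 6.87 and 6.60 in heat-shocked cells against 7.12, 7.21, 7.25 and 7.41 in untreated cells, a change of -0.68 ± 0.13 (adjusted p = 0.000692). All heat-shocked arrays lay below all untreated ones. ZNF649, a KRAB protein, stood at 6.88, 7.12 and 7.04 in heat-shocked cells against 7.57, 7.73 and 7.69 in untreated cells with Sat III siRNA. With scrambled siRNA it stood at 6.65, 6.88, 6.87 and 6.87 in heat-shocked cells against 7.34, 7.28, 7.34 and 7.67 in untreated cells. Its changes were -0.65 ± 0.12 with Sat III and -0.59 ± 0.11 with scrambled siRNA (adjusted p = 0.00131 and 0.000575), with no overlap in either arm. Under median scaling all 3 genes were called in the scrambled arm. In the Sat III siRNA arm ZNF784 was called under it and ZNF101 and ZNF649 were not (adjusted p = 0.0862 and 0.0738), while both were with the block added.

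**Figure D4:**
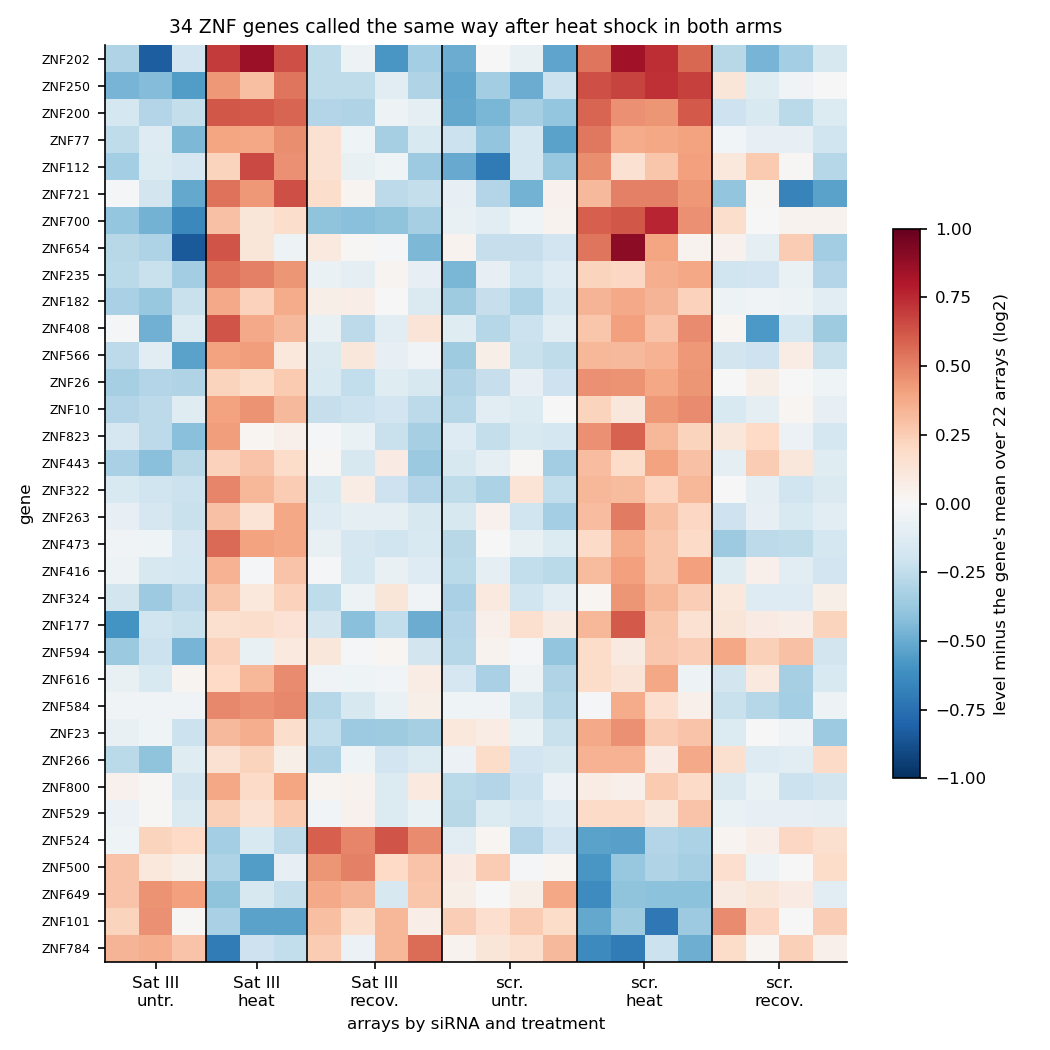
Level of the 34 ZNF genes called the same way after heat shock in both arms on each of the 22 arrays, as the difference from the gene's mean over all arrays on the log2 scale (red above, blue below, colour limit 1), Sat III siRNA arm left and scrambled (scr.) arm right, each in the order untreated (untr.), heat shock and recovery (recov.). The heat-shocked columns stand out in red for 29 genes and in blue for the 5 genes at the bottom, ZNF524, ZNF500, ZNF649, ZNF101 and ZNF784.

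Position on chromosome 19 was compared as a description. After heat shock in the Sat III siRNA arm 18 of 108 ZNF genes on chromosome 19 (16.7%) were called higher and 6 lower, against 15 of 147 (10.2%) higher and 6 lower on other chromosomes. In the scrambled arm 25 of 108 (23.1%) were higher and 6 lower, against 27 of 147 (18.4%) higher and 5 lower elsewhere. Of the 560 other genes tested on chromosome 19, 4.11% were higher and 4.82% lower in the Sat III siRNA arm, and 4.64% higher and 7.86% lower in the scrambled arm. By raw intensity, 8, 11 and 14 of 85 ZNF genes each, from the dimmest to the brightest, were called higher in the Sat III siRNA arm, and 16, 18 and 18 in the scrambled arm.

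After 6 h of recovery fewer ZNF genes were called against untreated cells, the same untreated arrays as for heat shock. In the Sat III siRNA arm 20 genes (7.84%) were higher and 6 (2.35%) lower, against 6.06% and 5.93% of all genes. In the scrambled arm 25 (9.80%) were higher and 4 (1.57%) lower, against 5.88% and 4.99%. The median change of the 255 genes was 0.056 with Sat III and 0.064 with scrambled siRNA, and that of all genes was -0.007 with Sat III and -0.010 with scrambled siRNA. Of the 20 genes called higher in the Sat III siRNA arm, all had a positive change in the scrambled arm and 12 (60.0%) were called. Of the 25 in the scrambled arm, 24 had a positive change in the Sat III siRNA arm and 12 (48.0%) were called. The count of 26 called in the Sat III siRNA arm was 9, 14 and 16 without untreated replicates 1, 2 and 4, each in turn, and 17 without recovery replicate 1. That of 29 in the scrambled arm was 19 without recovery replicate 2. Under median scaling 0 of the 255 genes were called in the Sat III siRNA arm, where 0.217% of all genes were called higher and 0.207% lower. With scrambled siRNA 1, ZNF747, was called higher (0.392%), against 0.266% higher and 0.177% lower of all genes. These are near the shares of all genes.

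ZNF503 (NLZ2), a corepressor of the NET family, was highest in recovery. With Sat III siRNA its level was 10.37, 10.46 and 10.59 in untreated cells, 10.79, 10.58 and 10.65 after heat shock and 11.05, 11.01, 11.12 and 11 after recovery. With scrambled siRNA it was 10.37, 10.45, 10.50 and 10.21 in untreated cells, 10.71, 10.77, 10.68 and 10.68 after heat shock and 10.89, 10.90, 10.74 and 10.94 after recovery. Every recovery array lay above every untreated array of its arm, and recovery over untreated was 0.57 ± 0.08 with Sat III and 0.49 ± 0.07 with scrambled siRNA (SE, adjusted p = 8.7e-05 and 0.000212, limma). ZNF274, a KRAB and SCAN protein known to bind the 3′ ends of other ZNF genes and to recruit SETDB1 there, rose by recovery and had heat shock values of -0.03 ± 0.09 with Sat III and 0.01 ± 0.08 with scrambled siRNA. Its recovery levels were 8.84, 8.98, 9.09 and 8.86 with Sat III siRNA, against 8.44, 8.51 and 8.51 in untreated cells. With scrambled siRNA they were 8.95, 9.0, 8.90 and 8.73, against 8.39, 8.38, 8.43 and 8.56 in untreated cells. The groups did not overlap, the change was 0.45 ± 0.08 with Sat III and 0.46 ± 0.08 with scrambled siRNA (adjusted p = 0.00121 and 0.000528), and a second probe gave 0.32 with Sat III and 0.42 with scrambled siRNA. ZNF589, a KRAB protein, rose by 0.47 ± 0.11 with Sat III and 0.43 ± 0.10 with scrambled siRNA (adjusted p = 0.00765 and 0.00838), and a second probe gave 0.38 with Sat III and 0.47 with scrambled siRNA. ZNF248 changed by 0.54 ± 0.13 with Sat III and 0.66 ± 0.12 with scrambled siRNA (adjusted p = 0.0092 and 0.00109), and the adjusted p with Sat III siRNA was 0.0785 without Sat III untreated replicate 2. None of these 4 genes was called in recovery under median scaling, where their changes were 0.44, 0.34, 0.36 and 0.50 with Sat III siRNA and 0.35, 0.37, 0.33 and 0.61 with scrambled siRNA, in the order ZNF503, ZNF274, ZNF589 and ZNF248. With the block of replicates 1 and 2 against 3 and 4 added, ZNF248 was called in both arms and ZNF503 with Sat III siRNA.

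ZNF93, which is known to repress a class of LINE-1 elements, fell by recovery. Its recovery levels were 6.20, 6.15, 5.99 and 5.80 with Sat III siRNA, against 6.63, 6.60 and 6.50 in untreated cells, a change of -0.54 ± 0.12 (SE, adjusted p = 0.00584, limma). With scrambled siRNA they were 6.11, 6.05, 6.27 and 6.27 against 6.59, 6.63, 6.84 and 6.44 in untreated cells, a change of -0.45 ± 0.11 (adjusted p = 0.0126, and 0.0517 without untreated replicate 3). The groups did not overlap in either arm. ZNF346 (JAZ), which binds double-stranded RNA, stood at 5.60, 5.55, 5.70 and 5.29 in recovering cells against 6.13, 6.26 and 6.04 in untreated cells with Sat III siRNA, a change of -0.61 ± 0.14 (adjusted p = 0.00733). With scrambled siRNA it stood at 6.27, 6.08, 5.89 and 5.51 in recovering cells against 6.52, 6.49, 6.46 and 6.05 in untreated cells, and the groups overlapped. That change of -0.44 ± 0.13 (adjusted p = 0.0325) was lost without untreated replicate 1, 2 or 3 (adjusted p = 0.0848, 0.0765 and 0.0795) or recovery replicate 3 or 4 (0.0726 and 0.123). Neither ZNF93 nor ZNF346 was called in recovery against untreated cells under median scaling, where ZNF93 had -0.56 with Sat III and -0.48 with scrambled siRNA and ZNF346 had -0.62 and -0.46 in the same arms. With the block added, ZNF93 was called in both arms and ZNF346 with Sat III siRNA.

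Recovering cells were also set against the heat-shocked cells of the comparisons above. In the Sat III siRNA arm 37 ZNF genes (14.5%) were higher and 39 (15.3%) lower in recovery, against 11.7% and 9.74% of all genes. In the scrambled arm 25 (9.80%) were higher and 42 (16.5%) lower, against 12.2% and 9.53%. Under median scaling 9 (3.53%) were higher and 5 (1.96%) lower in the Sat III siRNA arm, against 2.49% and 1.59% of all genes. With scrambled siRNA 10 (3.92%) were higher and 4 (1.57%) lower, against 3.02% and 1.49%, so the higher calls outnumbered the lower ones among all genes too. ZNF202 stood at 6.04, 6.24, 5.71 and 5.95 in recovering cells with Sat III siRNA and at 6.02, 5.83, 5.95 and 6.13 with scrambled siRNA, below all heat-shocked arrays. Its changes from heat shock were -1.04 ± 0.15 with Sat III and -0.99 ± 0.14 with scrambled siRNA (SE, adjusted p = 2.96e-05 and 2.46e-05, limma), and recovery over untreated was 0.13 ± 0.15 with Sat III and -0.04 ± 0.14 with scrambled siRNA. ZNF473 (ZFP100), which takes part in the 3′ end processing of histone mRNA, was lower in recovery than at heat shock, with changes of -0.60 ± 0.08 with Sat III and -0.53 ± 0.07 with scrambled siRNA (adjusted p = 8.39e-06 and 1.54e-05), and a second probe gave -0.50 with Sat III and -0.61 with scrambled siRNA. ZNF101 and ZNF784, lower at heat shock, were higher in recovery than at heat shock by 0.69 ± 0.11 and 0.66 ± 0.14 with Sat III siRNA and by 0.71 ± 0.11 and 0.64 ± 0.13 with scrambled siRNA. ZNF789 stood at 7.85, 8.12, 7.85 and 7.93 in recovering cells against 7.27, 6.96 and 7.20 in heat-shocked cells with Sat III siRNA. With scrambled siRNA it stood at 7.95, 8.06, 7.79 and 7.83 in recovering cells against 7.0, 7.23, 7.09 and 6.75 in heat-shocked cells. Its changes were 0.80 ± 0.11 with Sat III and 0.89 ± 0.10 with scrambled siRNA with no overlap (adjusted p = 1.7e-05 and 1.52e-06), but a second probe of ZNF789, detected on 22 arrays, gave -0.53 with Sat III and -0.14 with scrambled siRNA, so its probes disagree in direction. ZNF331, an imprinted gene, was at least 1.51-fold higher in recovering than in heat-shocked cells with Sat III siRNA, where it was detected on 0 of 3 heat-shocked arrays (adjusted p = 0.000258). Such a bound sets the brighter group's mean against, on each array of the dim group, the probe's own level or the array's lowest detected signal, whichever is higher, and the lowest detected signal was 5.21 to 5.62 over all arrays. With scrambled siRNA ZNF331 rose by 0.58 ± 0.14 (adjusted p = 0.00438). Under median scaling ZNF202, ZNF101, ZNF784 and ZNF789 were called in recovery over heat shock in both arms. ZNF331 was called there only with Sat III siRNA, and ZNF473 in neither arm. With the block of replicates 1 and 2 against 3 and 4 added, ZNF331 and ZNF473 were called in both arms.

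**Figure D5:**
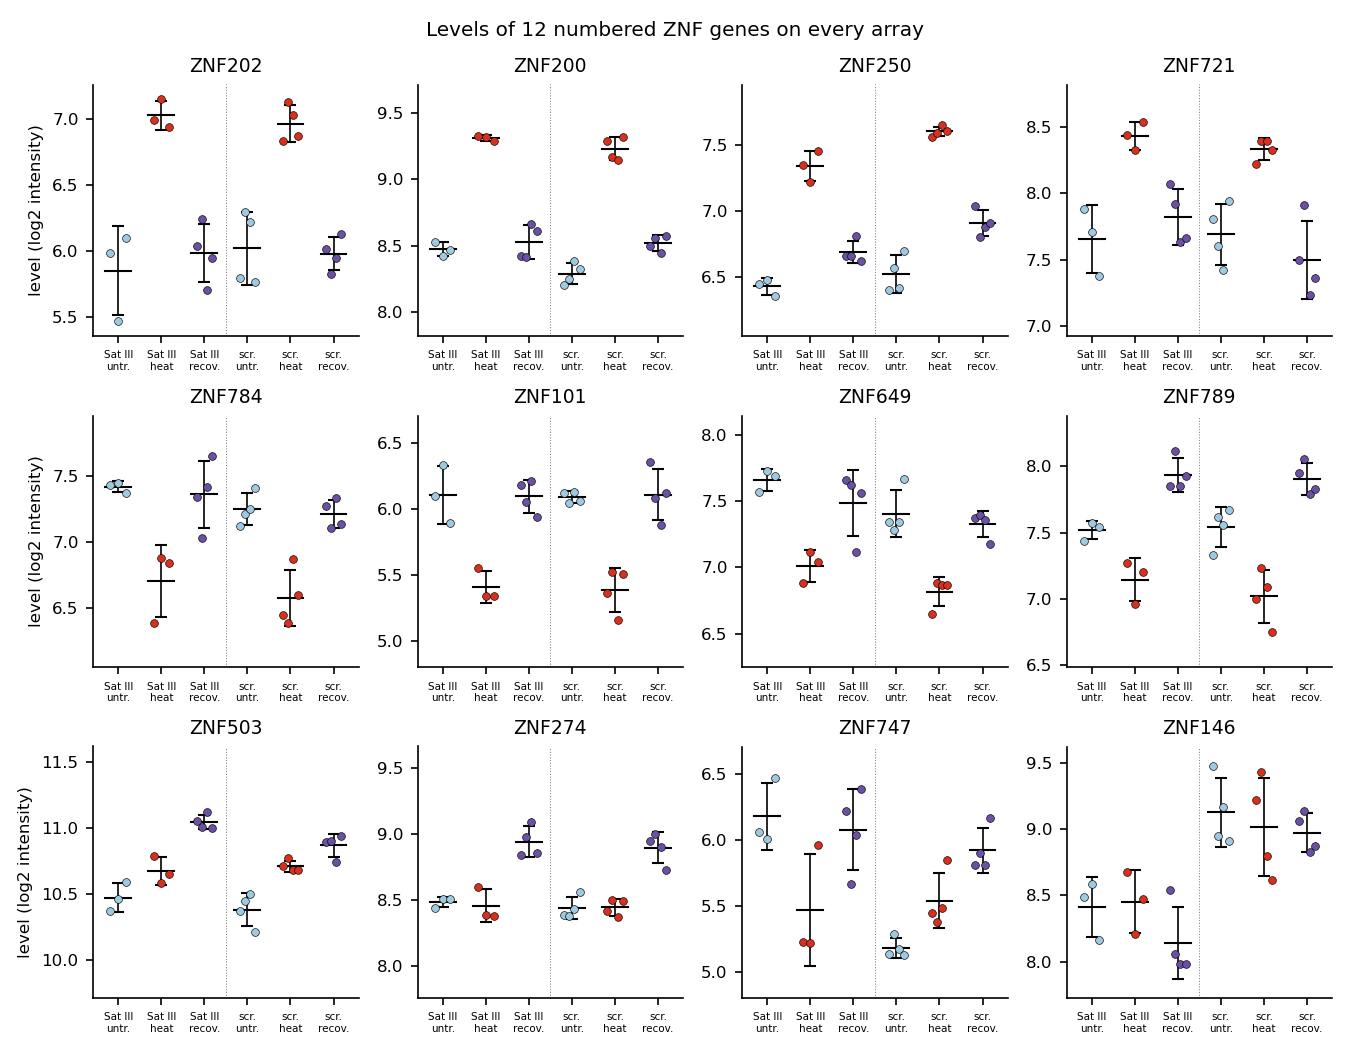
Level of 12 ZNF genes on every array on the log2 scale (y axes of different position), with Sat III siRNA left of the dotted line and scrambled (scr.) siRNA right of it, each in the order untreated (untr.), heat shock and recovery (recov.). Points are arrays, lines the group means and bars the SD (3 or 4 arrays), and ZNF202, ZNF200, ZNF250 and ZNF721 are highest at heat shock, ZNF784, ZNF101, ZNF649 and ZNF789 lowest there, ZNF503 and ZNF274 highest in recovery, while ZNF747 and ZNF146 differ between the arms.

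Between the siRNAs few ZNF genes differed. Sat III siRNA over scrambled siRNA gave 4 higher (1.57%) and 7 lower (2.75%) in untreated cells, against 2.27% and 3.82% of all genes and 6.09% in either direction. After heat shock it gave 3 higher (1.18%) and 9 lower (3.53%), against 2.35% and 4.69%. After recovery it gave 4 higher (1.57%) and 12 lower (4.71%), against 3.60% and 6.92%. Under quantile normalisation the shares of ZNF genes called lay below those of all genes at every stage. Under median scaling 0.392% of ZNF genes were called higher in untreated cells, against 0.0296% of all genes. The 11 genes called in untreated cells were 4 without Sat III untreated replicate 1 and 5 without replicate 4, and the 12 after heat shock were 5 without Sat III heat shock replicate 2. The difference between the arms in the change itself, tested as an interaction, called 0 of 255 ZNF genes for heat shock and 0 for recovery (limma), with 9 and 6 genes at an unadjusted p under 0.05. Of all 10147 genes the same test called 0 too, for heat shock and for recovery. Without Sat III heat shock replicate 4 it called 1 ZNF gene for heat shock.

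ZNF747, which codes for a KRAB protein, had the largest difference between the arms in untreated cells. It stood there at 6.06, 6.01 and 6.47 with Sat III siRNA, against 5.14, 5.29, 5.18 and 5.13 with scrambled siRNA, where it was detected on 0 of 4 arrays. It was at least 1.74-fold higher with Sat III siRNA (adjusted p = 0.000888, limma), and was also called under median scaling (adjusted p = 0.00519). After heat shock its levels were 5.23, 5.22 and 5.96 with Sat III siRNA and 5.45, 5.38, 5.49 and 5.85 with scrambled siRNA, and the groups overlapped. After recovery they were 6.22, 5.67, 6.04 and 6.39 against 5.81, 5.90, 5.81 and 6.17, and overlapped too. Within the scrambled arm ZNF747 was at least 1.46-fold higher in recovering than in untreated cells (adjusted p = 0.0048). Its heat shock change was -0.71 ± 0.19 with Sat III siRNA (adjusted p = 0.0182), which was lost without heat shock replicate 1 (0.106), heat shock replicate 2 (0.115) or untreated replicate 4 (0.115). With scrambled siRNA it was at least 1.12-fold higher after heat shock than in untreated cells, and this did not pass the test (adjusted p = 0.18). The difference between the arms in these changes has no measured size, since the scrambled untreated level was not above background.

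ZNF700 was lower with Sat III siRNA under all 3 treatments. In untreated cells it stood at 7.75, 7.66 and 7.49 with Sat III siRNA against 8.06, 8.03, 8.09 and 8.17 with scrambled siRNA. After heat shock it stood at 8.43, 8.26 and 8.31 against 8.73, 8.76, 8.90 and 8.59, and after recovery at 7.73, 7.72, 7.73 and 7.80 against 8.31, 8.13, 8.17 and 8.17, in the same order of arms. The arms overlapped at no stage, and the differences were -0.46 ± 0.08, -0.41 ± 0.08 and -0.45 ± 0.07 (SE, adjusted p = 0.000932, 0.00185 and 0.00029, limma). A second probe of ZNF700, detected on 15 arrays, gave -0.46, -0.05 and -0.30. ZNF35 differed by -0.37 ± 0.09, -0.44 ± 0.09 and -0.36 ± 0.08 in untreated, heat-shocked and recovering cells (adjusted p = 0.0123, 0.00234 and 0.00508), the first of which was 0.0727 without Sat III untreated replicate 1. ZNF146 (OZF), a protein made almost wholly of zinc fingers, stood at 8.54, 8.06, 7.98 and 7.98 with Sat III siRNA in recovery, against 9.06, 9.14, 8.83 and 8.87 with scrambled siRNA, with no overlap and a difference of -0.83 ± 0.17 (adjusted p = 0.00209). In untreated cells its difference was -0.71 ± 0.18 (adjusted p = 0.0206), lost without Sat III replicate 1 (0.0525), Sat III replicate 4 (0.128) or scrambled replicate 1 (0.0661). After heat shock it was -0.57 ± 0.18 (adjusted p = 0.0635). ZNF217 and ZNF524 were higher with Sat III siRNA in recovery by 0.36 ± 0.09 and 0.43 ± 0.09 (adjusted p = 0.0141 and 0.00182). Under median scaling ZNF747 in untreated cells was the only one of the 255 ZNF genes called between the arms. Few of all genes were called there too. Of all genes 0.0296% were higher and 0.404% lower in untreated cells, 0.0986% and 0.572% after heat shock, and 0.0493% and 1.07% in recovery. With the block added, ZNF700 was called at all 3 stages.

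Grouped by known role, genes that bind RNA or act on ribosomes and splicing were called in part. Of 8 measured, 0 passed after heat shock with Sat III siRNA (limma, with 2 at an unadjusted p under 0.05), against 7.62% of all genes. With scrambled siRNA 3 were higher, against 5.96% of all genes. The list medians were 0.063 with Sat III and 0.183 with scrambled siRNA. The 3 were ZNF239, which binds RNA (0.49 ± 0.09), ZNF830, a protein linked to the spliceosome (0.36 ± 0.08), and ZNF622, which takes part in maturation of the large ribosomal subunit (0.28 ± 0.08). The ZNF622 call was lost without heat shock replicate 1 (adjusted p = 0.0959) or 2 (0.0717). ZNF598, the ubiquitin ligase that marks collided ribosomes, had heat shock values of -0.05 with Sat III and 0.10 with scrambled siRNA, and neither passed. In recovery against untreated cells 1 of the 8 was higher and 3 lower with Sat III siRNA, against 6.06% and 5.93% of all genes. With scrambled siRNA 1 was higher and 1 lower, against 5.88% and 4.99% of all genes. ZNF239 was the higher one in both arms and ZNF346 was among the lower ones in both. With Sat III siRNA the ZNF239 call was lost without untreated replicate 1 (adjusted p = 0.0655) or 2 (0.0845) or recovery replicate 1 (0.0533) or 3 (0.0535). The other lower genes in that arm, ZNF326 and ZNF593, changed by -0.53 ± 0.15 and -0.25 ± 0.08 (SE). The ZNF326 call was lost without untreated replicate 1, 2 or 4 (0.0974, 0.0558 and 0.0592) or recovery replicate 1 or 4 (0.0531 and 0.0651). The ZNF593 call was lost without untreated replicate 1, 2 or 4 (0.137, 0.0938 and 0.109) or recovery replicate 2 or 3 (0.104 and 0.151). The ZNF346 call with scrambled siRNA was lost without single arrays as given above. Under median scaling 0 of the 8 were called after heat shock in either arm, with the block of replicates 1 and 2 against 3 and 4 or without it, and the list's median heat shock change was -0.035 with Sat III and 0.084 with scrambled siRNA, so its direction with Sat III siRNA turned.

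The 6 genes listed for repression of retroelements and heterochromatin had calls in both directions. Of all genes 7.62% with Sat III and 11.6% with scrambled siRNA were called after heat shock, and 12% and 10.9% after recovery. After heat shock ZNF10 and ZNF202 rose and ZNF649 fell in both arms, and after recovery ZNF274 rose and ZNF93 fell in both. ZNF10 (KOX1), the source of the KRAB domain much used in synthetic repressors, had levels of 7.40, 7.44 and 7.32 in heat-shocked cells against 6.70, 6.73 and 6.87 in untreated cells with Sat III siRNA. With scrambled siRNA its levels were 7.22, 7.11, 7.43 and 7.47 in heat-shocked cells against 6.71, 6.88, 6.86 and 7.0 in untreated cells. The groups did not overlap in either arm, and the changes were 0.62 ± 0.09 with Sat III and 0.45 ± 0.08 with scrambled siRNA (SE, adjusted p = 9.5e-05 and 0.000475, limma). ZNF91, known to repress SVA elements, had heat shock values of -0.15 with Sat III and 0.14 with scrambled siRNA and passed in none of the 9 comparisons. The list's median heat shock change was 0.09 with Sat III and 0.097 with scrambled siRNA, and under median scaling it was -0.001 with Sat III and -0.008 with scrambled siRNA. ZNF10 was not called after heat shock under median scaling, where its change was 0.53 with Sat III and 0.35 with scrambled siRNA (adjusted p = 0.225 and 0.383), and was called in both arms with the block added (0.00841 and 0.0422).

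Of 8 activators and promoter factors only ZNF263 passed after heat shock, by 0.43 ± 0.09 with Sat III siRNA and 0.50 ± 0.08 with scrambled siRNA (SE, adjusted p = 0.00438 and 0.000163, limma). Of all genes 7.62% passed after heat shock with Sat III and 11.6% with scrambled siRNA. ZNF143, an activator of promoters of small nuclear RNA and housekeeping genes, had heat shock values of -0.01 with Sat III and 0.25 with scrambled siRNA that did not pass. ZNF76, its close relative, was lower with Sat III siRNA than with scrambled siRNA in recovery, with a difference of -0.46 ± 0.11 (adjusted p = 0.00934). ZNF384, ZNF281 and ZNF24 passed in none of the 9 comparisons. Of 8 partners of corepressor complexes, ZNF217, which binds CoREST and CtBP, was higher in recovery than at heat shock by 0.55 ± 0.10 with Sat III and 0.35 ± 0.09 with scrambled siRNA (adjusted p = 0.000419 and 0.00833). ZNF518B was higher after heat shock with Sat III siRNA by 0.39 ± 0.09 (adjusted p = 0.00534), and its value with scrambled siRNA was 0.16 ± 0.07 (adjusted p = 0.196). ZNF462, ZNF512B and ZNF644 passed in none of the 9 comparisons. Of 4 genes listed for mitosis, SUMO and ubiquitin, ZNF207 (BuGZ), a kinetochore protein, ZNF451, a SUMO ligase, and ZNF277 passed in none. ZNF746 (PARIS), a substrate of the ubiquitin ligase parkin, was higher in recovery than at heat shock by 0.33 ± 0.08 with Sat III and 0.34 ± 0.07 with scrambled siRNA (adjusted p = 0.00382 and 0.00158), and lower with Sat III siRNA than with scrambled siRNA in recovery, with a difference of -0.33 ± 0.07 (adjusted p = 0.00443). None of these calls of ZNF263, ZNF76, ZNF217, ZNF518B and ZNF746 was lost without any single array, and none was made under median scaling alone. With the block added, median scaling called ZNF263 after heat shock with scrambled siRNA, ZNF217 in recovery over heat shock in both arms and ZNF76 between the arms in recovery. Some calls in these lists that are not given above were lost without single arrays. That of ZNF746 after heat shock with Sat III siRNA had an adjusted p (limma) of 0.125 without heat shock replicate 2. That of ZNF518B in recovery over heat shock with scrambled siRNA had 0.0729 without heat shock replicate 3. That of ZNF148 between the arms in untreated cells had 0.138 without Sat III replicate 4. ZNF296 was called higher after heat shock with scrambled siRNA (0.0518 without untreated replicate 1). In that arm it was called lower in recovery than at heat shock (0.0661 without recovery replicate 3). ZNF410 and ZNF532 were called higher in recovery over untreated with Sat III siRNA (0.187 and 0.126 without untreated replicates 1 and 4). ZNF827 was called lower with Sat III siRNA in untreated cells (0.0991 without Sat III replicate 2).

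The partners through which KRAB proteins repress were measured on the same arrays. Of 18 genes of that list, 0 were called after heat shock with Sat III siRNA (limma, with 1 at an unadjusted p under 0.05), against 7.62% of all genes. With scrambled siRNA 1 was higher (MORC2, 0.42 ± 0.11) and 1 lower (SMARCAD1, -0.26 ± 0.07), against 5.96% and 5.68% of all genes. The list medians were -0.013 with Sat III and -0.073 with scrambled siRNA. TRIM28 had heat shock values of -0.01 ± 0.12 with Sat III and -0.10 ± 0.10 with scrambled siRNA (SE, adjusted p = 0.986 and 0.637, limma), and SETDB1 values of -0.01 ± 0.13 with Sat III and -0.18 ± 0.12 with scrambled siRNA (adjusted p = 0.986 and 0.384). In recovery 0 of the 18 were called with Sat III siRNA (limma, with 2 at an unadjusted p under 0.05). Of all genes 12% were called in recovery with Sat III and 10.9% with scrambled siRNA. With scrambled siRNA CBX1 and CBX3, which code for HP1 proteins, changed by -0.46 ± 0.10 and -0.72 ± 0.23 (SE, adjusted p = 0.00634 and 0.0447). MORC2, a partner of the HUSH complex, changed by 0.50 ± 0.11 (adjusted p = 0.0054). The recovery levels of CBX3 had an SD of 0.61, against 0.07 in untreated cells. Calls of this list were not tested with single arrays left out. None of these calls was made under median scaling, where the recovery values with scrambled siRNA were -0.52 for CBX1, -0.82 for CBX3 and 0.43 for MORC2, and the heat shock values 0.30 for MORC2 and -0.38 for SMARCAD1. With the block added, median scaling called 1 of the 18 higher and 2 lower in scrambled recovery, against 1.74% and 3.22% of all genes.

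Other zinc finger families, taken by the pattern of their symbols, were counted in the same way. Of all 10147 genes, 4.11% were higher and 3.51% lower after heat shock with Sat III siRNA, and 5.96% and 5.68% with scrambled siRNA. Of 13 ZSCAN and ZKSCAN genes, 2 were higher and 1 lower after heat shock with Sat III siRNA and 7 higher and 1 lower with scrambled siRNA, with medians of 0.126 with Sat III and 0.348 with scrambled siRNA. Of 11 ZFP genes, which include the CCCH genes ZFP36, ZFP36L1 and ZFP36L2, 4 were higher with Sat III siRNA and 5 with scrambled siRNA and 0 lower, with medians of 0.276 with Sat III and 0.357 with scrambled siRNA. Of 16 genes of the KLF and SP pattern, which takes in SP110, a gene of another family, 4 with Sat III and 5 with scrambled siRNA were higher and 1 lower in each arm. Of 25 ZBTB genes, 4 with Sat III and 5 with scrambled siRNA were higher and 3 with Sat III and 2 with scrambled siRNA lower. Of 11 ZC3H genes, whose CCCH fingers bind RNA, 0 were higher, and 1 with Sat III and 2 with scrambled siRNA were lower. Under median scaling the ZFP median was 0.206 with Sat III and 0.274 with scrambled siRNA and the ZSCAN and ZKSCAN median 0.03 with Sat III and 0.23 with scrambled siRNA, and it called fewer of these and other family members. It called 1 ZFP gene higher with Sat III siRNA and 2 with scrambled siRNA, and 0 ZSCAN and ZKSCAN genes with Sat III siRNA and 1 with scrambled siRNA. Of the ZBTB genes it called 0 higher in either arm and 2 with Sat III and 1 with scrambled siRNA lower, with medians of -0.202 with Sat III and 0.036 with scrambled siRNA. Of the KLF and SP genes it called 3 higher and 0 lower in each arm, and of the ZC3H genes 0 in either direction. Of all genes it called 1.01% higher and 0.532% lower with Sat III siRNA, and 1.24% and 1.23% with scrambled siRNA.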

How the data were processed

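Total RNA of HEK293T cells, 300 ng per sample, was amplified, labelled with biotin and hybridised to Illumina bead arrays, per the labels' protocols. The deposited scanner table holds a linear intensity per probe, with no normalisation between arrays as judged from the values, and a detection p-value per probe, per the file headers. The scanner software is, for the sources used here, not given. A normalised table deposited by the authors also holds linear intensity values and served as an alternative.

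Intensities were background-corrected, quantile-normalised and logged (log2) with neqc of limma 3.58.1 in R 4.3.3, with an offset of 16. Probes with a detection p-value under 0.01 on at least 3 of 22 arrays were kept, which left 15324 probes and, at the brightest probe per gene, 10147 genes. Of all 48803 probes, 28098 had 1 gene symbol in the platform annotation, 13 had several and 20692 had none. Of the 255 ZNF genes 53 had further tested probes, 59 in all. One fit over the 6 groups gave 9 pairwise comparisons and 2 differences between arms, with p-values adjusted over all 10147 genes and calls at an adjusted p under 0.05. The number of arrays limits the precision. The fit was tested on simulated data. Alternatives varied the normalisation, background correction, filter, probe choice, symbols, covariates, samples and source table, and left out each array in turn. Genes to be named were the up to 10 most changed each way among those called in a comparison, those called in both arms, the role lists, and those at the ends of the intensity range and of the detection limit. ZNF genes and lists were chosen with earlier results of these data known. Sequences are RefSeq's (GRCh38.p14).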

Additional observations from a re-analysis of the deposited data

Results flagged for a closer look

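In groups of 4 arrays, the 32 genes whose levels were looked at, together with the median level of the ZNF genes, gave 132 groups of values, and in 7 of them 1 array stood apart from the other 3, with a gap above Dixon's limit for the group's range. Chance alone gives about 1 in 20. All levels are on the log2 scale.

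ZNF649 was 7.67 in scrambled untreated replicate 4, against 7.28 to 7.34 on the other 3 arrays, and 6.65 in scrambled heat shock replicate 1, against 6.87 to 6.88. Its heat-shocked arrays stayed below its untreated arrays with and without these. ZNF346 was 6.05 in scrambled untreated replicate 4, against 6.46 to 6.52 on the others, and this is the array through which its untreated and recovering groups overlapped. ZNF37A was 5.56 in scrambled heat shock replicate 2, against 5.12 to 5.19. ZNF566 was 5.67 in scrambled recovery replicate 3, against 5.37 to 5.41. ZNF700 was 7.80 in Sat III recovery replicate 4, against 7.72 to 7.73, a gap that is small beside its difference between the arms. ZNF146 was 8.54 in Sat III recovery replicate 1, against 7.98 to 8.06, and still lay below all scrambled recovery arrays (8.83 to 9.14).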

How the results depend on the processing

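The counts of called ZNF genes and their median changes under other choices were set against the reported values, and the cause of each shift was not tested. Most counts and medians here stand without those of all genes, so whether a shift is particular to ZNF genes is not shown. A median counted as moved when it shifted by over 0.0238. This limit is the pooled SD over arrays of the ZNF genes' median deviation from their group means. It is a spread between arrays and not the spread of a median change. With median scaling the ZNF genes called numbered 5 (Sat III siRNA) and 7 (scrambled siRNA) for heat shock over untreated, 0 (Sat III siRNA) and 1 (scrambled siRNA) for recovery over untreated, 14 (Sat III siRNA) and 14 (scrambled siRNA) for recovery over heat shock, 1 for Sat III over scrambled in untreated cells, 0 for Sat III over scrambled in heat-shocked cells and 0 for Sat III over scrambled in recovery. The median change was then -0.018 (Sat III siRNA) and -0.035 (scrambled siRNA) for heat shock over untreated, 0.01 (Sat III siRNA) and 0.003 (scrambled siRNA) for recovery over untreated, 0.004 (Sat III siRNA) and 0.033 (scrambled siRNA) for recovery over heat shock, -0.066 for Sat III over scrambled in untreated cells and -0.056 for Sat III over scrambled in recovery. With no filter on dim probes the ZNF genes called numbered 17 for recovery over untreated with Sat III siRNA. With replicates 1 and 2 against 3 and 4 as a block the ZNF genes called numbered 18 for Sat III over scrambled in untreated cells. These were 2.75% higher and 4.31% lower, against 3.12% and 4.86% of all genes. With only the groups compared in the fit the ZNF genes called numbered 16 for recovery over untreated with scrambled siRNA, 5 for Sat III over scrambled in untreated cells and 7 for Sat III over scrambled in heat-shocked cells. With the authors' table as labelled the ZNF genes called numbered 0 in all 9 comparisons. The median change was then 0.012 (Sat III siRNA) and 0.036 (scrambled siRNA) for heat shock over untreated and 0.034 (Sat III siRNA) and 0.012 (scrambled siRNA) for recovery over heat shock. With its matching columns alone the ZNF genes called numbered 7 for recovery over untreated with Sat III siRNA, 43 for recovery over heat shock with Sat III siRNA, 2 for Sat III over scrambled in untreated cells and 9 for Sat III over scrambled in recovery. With replicates 1 and 2 alone the ZNF genes called numbered 25 (Sat III siRNA) and 28 (scrambled siRNA) for heat shock over untreated, 3 (Sat III siRNA) and 5 (scrambled siRNA) for recovery over untreated, 42 (Sat III siRNA) and 36 (scrambled siRNA) for recovery over heat shock, 1 for Sat III over scrambled in untreated cells, 3 for Sat III over scrambled in heat-shocked cells and 3 for Sat III over scrambled in recovery. The median change was then -0.06 for the arms' difference in heat shock. With replicates 3 and 4 alone the untreated and heat-shocked groups of the Sat III siRNA arm held 1 array each. No count is given for comparisons with those groups. With scrambled siRNA the ZNF genes called numbered 18 for heat shock over untreated and 0 for recovery over untreated. For recovery over heat shock they numbered 24, and for Sat III over scrambled in recovery 2. The median change was then 0.113 for heat shock over untreated with Sat III siRNA, 0.088 for recovery over untreated with Sat III siRNA, -0.048 for recovery over heat shock with Sat III siRNA, 0.021 for the arms' difference in heat shock and 0.021 for the arms' difference in recovery. With the arrays whose labels match alone, an alternative added after seeing the data, the ZNF genes called numbered 28 for heat shock over untreated with Sat III siRNA, 4 (Sat III siRNA) and 19 (scrambled siRNA) for recovery over untreated, 40 for recovery over heat shock with Sat III siRNA, 1 for Sat III over scrambled in untreated cells, 6 for Sat III over scrambled in heat-shocked cells and 7 for Sat III over scrambled in recovery. The median change was then -0.037 for the arms' difference in heat shock. With median scaling and that block, also added after seeing the data, the ZNF genes called numbered 26 (Sat III siRNA) and 37 (scrambled siRNA) for heat shock over untreated, 8 (Sat III siRNA) and 8 (scrambled siRNA) for recovery over untreated, 42 (Sat III siRNA) and 42 (scrambled siRNA) for recovery over heat shock, 6 for Sat III over scrambled in heat-shocked cells and 8 for Sat III over scrambled in recovery. The median change was then -0.018 (Sat III siRNA) and -0.035 (scrambled siRNA) for heat shock over untreated, 0.003 for recovery over untreated with scrambled siRNA, 0.06 (Sat III siRNA) and 0.033 (scrambled siRNA) for recovery over heat shock, -0.11 for Sat III over scrambled in untreated cells, -0.107 for Sat III over scrambled in heat-shocked cells, -0.056 for Sat III over scrambled in recovery and 0.051 for the arms' difference in recovery. The authors' table as labelled holds 6 columns that match another scanner column and 1 that matches none, and under it 3 recovery over untreated changes with Sat III siRNA turned sign, to 0.02 for ZNF385B, -0.01 for ZNF532 and -0.05 for ZNF789. With each array left out in turn the counts ranged over 27 to 41 (Sat III siRNA) and 50 to 59 (scrambled siRNA) for heat shock over untreated, 9 to 18 (Sat III siRNA) and 19 to 24 (scrambled siRNA) for recovery over untreated, 56 to 75 (Sat III siRNA) and 57 to 66 (scrambled siRNA) for recovery over heat shock, 4 to 12 for Sat III over scrambled in untreated cells, 5 to 13 for Sat III over scrambled in heat-shocked cells, 14 to 19 for Sat III over scrambled in recovery, 0 to 1 for the arms' difference in heat shock and 0 to 0 for the arms' difference in recovery, and the medians over 0.039 to 0.079 (Sat III siRNA) and 0.054 to 0.083 (scrambled siRNA) for heat shock over untreated, 0.047 to 0.078 (Sat III siRNA) and 0.049 to 0.087 (scrambled siRNA) for recovery over untreated, -0.03 to -0.004 (Sat III siRNA) and -0.028 to 0.004 (scrambled siRNA) for recovery over heat shock, -0.029 to -0.001 for Sat III over scrambled in untreated cells, -0.048 to 0.007 for Sat III over scrambled in heat-shocked cells, -0.025 to 0.012 for Sat III over scrambled in recovery, -0.039 to 0.013 for the arms' difference in heat shock and -0.015 to 0.009 for the arms' difference in recovery. The labels do not say whether the replicate numbers pair the samples, and the reported fit held no replicate term. Deviations of same-numbered arrays had correlations of -0.06 to 0.3. Of the 22 arrays, 18 correlated best with one of their own number, so the numbers carry some shared deviation that the reported fit leaves out. With the replicate block the counts were 55 (Sat III siRNA) and 78 (scrambled siRNA) for heat shock over untreated, 33 (Sat III siRNA) and 42 (scrambled siRNA) for recovery over untreated, 88 (Sat III siRNA) and 82 (scrambled siRNA) for recovery over heat shock, 15 for Sat III over scrambled in untreated cells, 14 for Sat III over scrambled in heat-shocked cells, 24 for Sat III over scrambled in recovery, 0 for the arms' difference in heat shock and 0 for the arms' difference in recovery. Of 192 calls of named genes, median scaling kept 40, median scaling with the block 131, the authors' table as labelled 0 and its matching columns 139. The replicate block kept 189, the block of replicates 1 and 2 against 3 and 4 kept 192, no background correction 184, the mean of all tested probes 180, no filter 176, a filter at 11 arrays 192, current gene symbols 192 and only the groups compared 148. Arrays with matching labels alone kept 122 and replicates 1 and 2 alone 91. No such count is given for replicates 3 and 4 alone, where some groups held 1 array. Groups of 3 or 4 arrays limit the precision, and for dim genes such as ZNF101 and ZNF566 some levels are at or below the lowest detected signal.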
